A study of Homo sapiens with 8 samples.

Results

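The genes described here encode the proteins that make microRNAs and the Argonaute proteins that carry them. They were chosen by name, as every listed RefSeq transcript of *DROSHA*, *DGCR8*, *XPO5*, *DICER1*, *TARBP2*, *PRKRA*, *AGO1*, *AGO2*, *AGO3* and *AGO4*, with the older EIF2C names of the Argonautes accepted. All 10 genes were found, with 19 of the 24812 listed transcripts, among 14528 genes with a symbol. SQ20B is an established line of human head and neck squamous cell carcinoma cells. Polyadenylated RNA was sequenced from 4 biological replicates in normoxia and from 4 kept in 0.5% O2 for 16 h, all of the same line in the same medium. The treatment text in the labels is the same for all 8 samples, so the condition was taken from the source label.

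A microRNA gene is transcribed into a long primary transcript, from which the nuclear Microprocessor, the nuclease DROSHA with its RNA-binding partner DGCR8, cuts out a hairpin. XPO5, exportin-5, carries the hairpin to the cytoplasm with the GTPase RAN, and DICER1 trims it to a short duplex with the help of the double-stranded RNA-binding proteins TARBP2 (TRBP) and PRKRA (PACT). One strand is loaded into an Argonaute protein, which finds messages by pairing with the microRNA seed. AGO2 can itself cut a well-paired message, and the Argonautes otherwise act through TNRC6 proteins, which bring in deadenylases and decapping factors.

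The levels were given in FPKM, fragment counts divided by transcript length and by library size, with 1 value per condition that the authors computed over its replicates. FPKM is scaled by transcript length, so that levels of different genes can be set side by side. No spread between replicates can be given from such values and no test was run, so every difference below is a description of the 2 pooled values. Read counts and depths of single samples were not analysed here. A change is the log2 of hypoxia over normoxia with 0.1 FPKM added to each, FPKM was summed over the transcripts of a gene, and a change is called only where it reached 1.5-fold. A limit of 0.5 FPKM on the mean of both conditions was passed by all 10 genes, by 16 of the 19 transcripts and by 12106 of all genes. The column sums were 536005 FPKM in normoxia and 458431 in hypoxia. Known hypoxia-responsive genes were higher in the hypoxia column, and all 6 listed for this check passed 1.5-fold upward. Their log2 changes were 4.77 for *CA9*, 3.85 for *ANKRD37*, 2.83 for *BNIP3*, 1.73 for *PDK1*, 1.55 for *ADM* and 1.02 for *VEGFA*. Of 8 squamous epithelial markers, 7 were above the FPKM limit and the other was not analysed here. Of these 7, 3 were lower and 4 higher in hypoxia, with *KRT5*, the most abundant, at 397.9 FPKM in normoxia and 441.7 in hypoxia, and *KRT6A*, the only one past 1.5-fold, at 5.10 and 3.26. Of the 10 markers in the fibroblast, leukocyte and endothelial lists, *CDH5*, *CD68* and *LUM* were listed, and the others were not analysed here. *CDH5* (4.78 FPKM in normoxia and 2.83 in hypoxia) and *CD68* (2.36 and 2.86) were above the FPKM limit. *LUM* (0.126 and 0.103) was below it.

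In normoxia the levels ran from *PRKRA* (48.7 FPKM) through *DICER1* (28.1), *XPO5* (27.7), *DGCR8* (10.0), *AGO3* (9.22), *AGO2* (8.56), *TARBP2* (8.12), *DROSHA* (5.56) and *AGO1* (5.54) to *AGO4* (2.59). *PRKRA* was thus at percentile 83.8 of all genes by mean FPKM and *AGO4* at percentile 28.7, and most of the set was of middling abundance. Between neighbours such as *DICER1* and *XPO5*, or *DROSHA* and *AGO1*, the spread that would tell them apart was not available. In hypoxia *PRKRA* and *DICER1* were still the highest and *AGO4* the lowest, while *TARBP2* (5.33 FPKM) stood below *DROSHA* and *AGO1*.

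**Figure D1:**
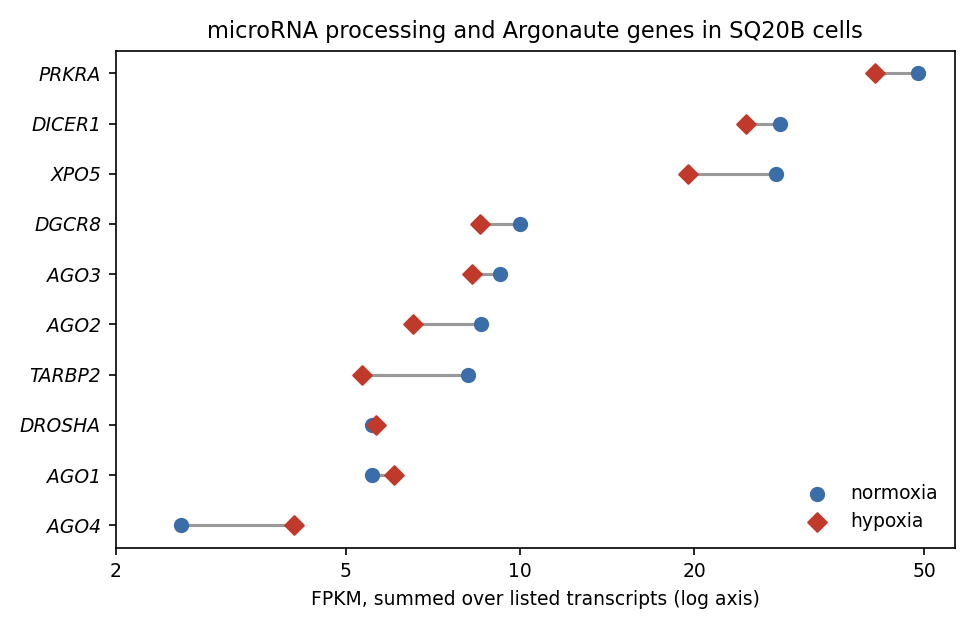
FPKM of each gene in normoxia (blue circles) and hypoxia (red diamonds) on a log axis, 1 pooled value per condition without error bars, ordered by the normoxia level. The hypoxia value lay to the left for 7 genes, furthest in proportion for *TARBP2* and *XPO5*, and to the right for *AGO4*, *AGO1* and, by 1.02-fold, *DROSHA*.

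Most of the differences were small. The median log2 change of the 10 genes was -0.21, against -0.07 for all 12106 genes and -0.08 for the 6679 genes whose mean FPKM lay between those of *AGO4* and *PRKRA*. Of the 10, 7 were lower in hypoxia and 3 higher, where 56.4% of all genes were lower. At 1.5-fold, 1 gene was called lower (*TARBP2*) against 11.2% of all genes, and 1 was called higher (*AGO4*) against 9.95% of all genes. At 1.2-fold, 3 genes were lower (*TARBP2*, *XPO5* and *AGO2*) against 33.0% of all genes, and *AGO4* alone was higher against 23.8%. With 10 genes, the counts at 1.5-fold were close to the background shares and are not a result about the set. The choice of scaling mattered for these values. With both columns brought to the same sum, the median of all genes moved to 0.15 and that of the 10 genes to 0.014, so both signs turned. Such scaling shifts log2 changes by a nearly common amount, so the gap between these medians could hardly change and its size is no check. The same scaling took the log2 change of *XPO5* from -0.51 to -0.28, of *AGO2* from -0.38 to -0.16, of *PRKRA* from -0.25 to -0.022 and of *DGCR8* from -0.22 to -0.0017. It took those of *DROSHA* and *AGO1* upward, to 0.24 and 0.35.

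**Figure D2:**
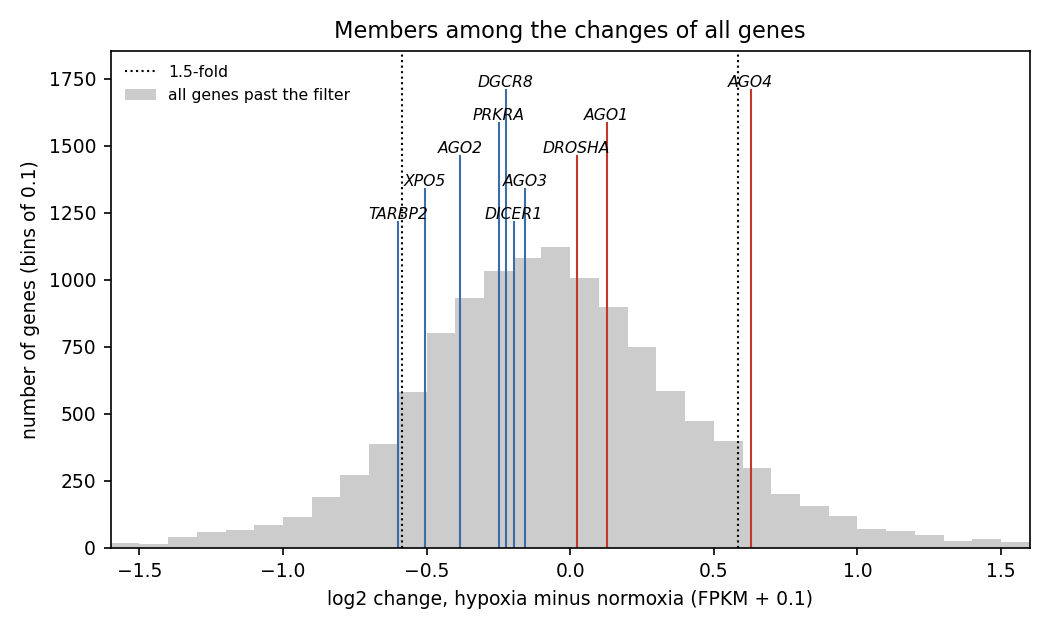
Histogram of the log2 change of all genes whose mean FPKM was 0.5 or more (grey, bins of 0.1), with a line at the change of each of the 10 genes and dotted lines at 1.5-fold. The 160 genes beyond 1.6 on either side are outside the plot. *TARBP2* and *AGO4* sit just past the dotted lines and the other genes lie between them, within the bulk of all genes.

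The Microprocessor genes differed little between the conditions. *DROSHA*, the nuclease (chr5:31400602-31532282 in hg19, minus strand), had 5.56 FPKM in normoxia and 5.64 in hypoxia, with a log2 change of 0.022, and was the nearest of the 10 to level. Its 2 transcripts were also near level, NM_001100412 with 3.22 and 3.21 FPKM and NM_013235 with 2.34 and 2.44. The sign of such values has no weight: it turned for NM_001100412 under each other scaling, and for the gene when its most abundant transcript was used alone. *DGCR8*, the partner that recognises the hairpin's stem, had 10.0 FPKM in normoxia and 8.54 in hypoxia, with a log2 change of -0.22 at percentile 35.9 of all genes. It lies at chr22:20067744-20099400 of GRCh37 (GENCODE), plus strand. In the deposited table it shares a locus with *RANBP1* and *TRMT2A*, and of its annotated exon bases 526 (7.18%) overlap an unnamed gene on the other strand that was not analysed here and 3 overlap *TRMT2A*. Its exons also hold the hairpins MIR1306 and MIR3618, with 85 and 88 bases. The ratio of *DGCR8* to *DROSHA* FPKM was 1.80 in normoxia and 1.51 in hypoxia.

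*XPO5*, the hairpin exporter, had the second largest relative decrease of the set and the largest in FPKM. It had 27.7 FPKM in normoxia and 19.5 in hypoxia, 1.42-fold lower (log2 change -0.51), at percentile 15.1 of all genes. It is listed with 1 transcript, NM_020750, at chr6:43490068-43543812 of hg19 on the minus strand. Of its annotated exon bases, 348 (4.10%) overlap *POLR1C* on the opposite strand, which had 40.8 FPKM in normoxia and 21.6 in hypoxia. The libraries were stranded, but the strand setting of the quantification was not given in the sources used here, and the part of shared bases in the *XPO5* value was not tested. *RAN*, the GTPase that exportins need, was far more abundant, with 1099.7 FPKM in normoxia and 723.7 in hypoxia, 1.52-fold lower.

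*DICER1*, the cytoplasmic nuclease (chr14:95552565-95623759 in hg19, minus strand), had 28.1 FPKM in normoxia and 24.5 in hypoxia. Its log2 change was -0.20, at percentile 38.7 of all genes, and turned to 0.030 with the column sums made equal. The sum covered 4 transcripts that did not differ alike. NM_030621, the most abundant, had 19.8 FPKM in normoxia and 19.0 in hypoxia (-0.056, a sign that turned under each other scaling). NM_001271282 had 6.74 and 3.82 FPKM, a log2 change of -0.80, while NM_177438 had 1.38 and 1.59 (0.19) and NM_001195573 was below the FPKM limit with 0.234 and 0.134. Most of the lower sum thus lay in NM_001271282, whose share of *DICER1* went from 24.0% in normoxia to 15.5% in hypoxia, while NM_030621 went from 70.3% to 77.4%. Cufflinks divides reads that fit several overlapping transcripts between them by a model, so values of transcripts of the same gene are less certain than their sum.

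The partners of DICER1 differed in level and in change. *TARBP2* (chr12:53894705-53900215 in hg19, plus strand) had 8.12 FPKM in normoxia and 5.33 in hypoxia, 1.51-fold lower, with the lowest log2 change of the 10 genes, -0.60, at percentile 10.7 of all genes. It stood at the edge of the 1.5-fold limit and fell short of it with 1 FPKM added (-0.53), under each other scaling (-0.57 to -0.38) and with its most abundant transcript alone (-0.55). Both of its transcripts were lower, NM_134324 from 7.29 to 4.93 FPKM and NM_134323 from 0.836 to 0.396. Of its annotated exon bases, 13.2% overlap an unnamed gene on the other strand that was not analysed here. *PRKRA* had 48.7 FPKM in normoxia and 41.0 in hypoxia, with a log2 change of -0.25 at percentile 34.2. Its 3 transcripts had almost the same log2 change, -0.32 for NM_001139517, -0.25 for NM_001139518 and -0.23 for NM_003690, and NM_001139518 carried 81.0% of the sum in normoxia and 81.2% in hypoxia. *PRKRA* lies at chr2:179296019-179316239 of GRCh37 (GENCODE), minus strand, within a table locus that also holds 7 other genes. Of its annotated exon bases, 8.85% overlap the noncoding *CHROMR* on the other strand, which was level with 8.20 and 8.23 FPKM. The ratio of *DICER1* to *TARBP2* FPKM was 3.46 in normoxia and 4.61 in hypoxia.

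**Figure D3:**
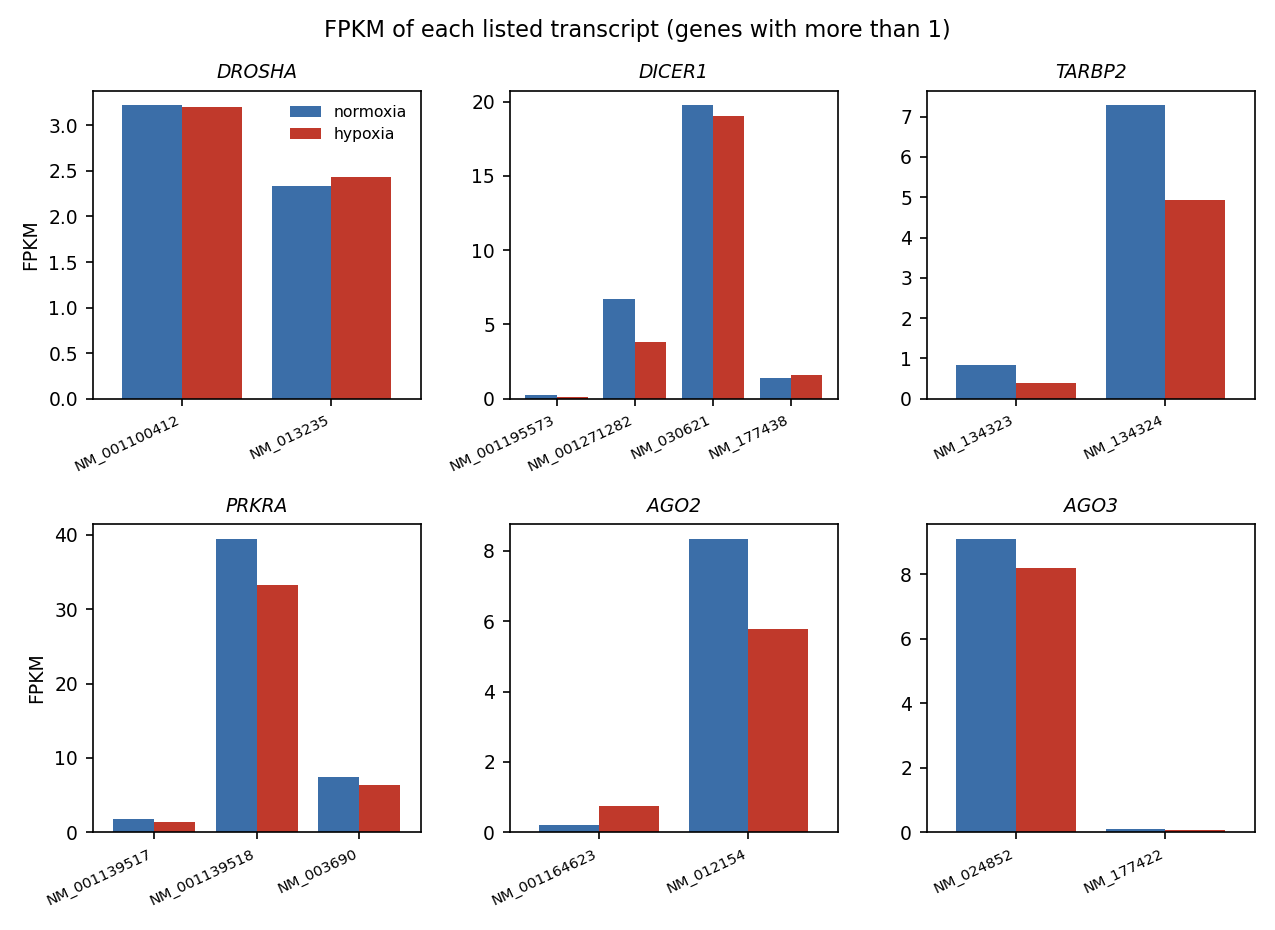
FPKM of every listed transcript of the 6 genes with more than 1, in normoxia (blue) and hypoxia (red), as pooled values without error bars, each panel with its own axis from 0. In *DICER1* the difference sits in NM_001271282, in *PRKRA* all 3 transcripts are lower in proportion, and in *AGO2* the minor transcript is higher while the major one is lower.

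The Argonaute genes differed in opposite directions. *AGO4* (chr1:36273828-36323490 in hg19, plus strand) had 2.59 FPKM in normoxia and 4.07 in hypoxia, 1.55-fold higher, with a log2 change of 0.63 at percentile 91.0 of all genes. With 1 FPKM in place of 0.1 added to each value, its change was 0.49 and below 1.5-fold, and it stayed past 1.5-fold upward under each other scaling. *AGO1*, its neighbour (chr1:36348810-36389899), had 5.54 and 6.06 FPKM, a log2 change of 0.13. *AGO3*, which lies next on the same strand (chr1:36396683-36522063), had 9.22 and 8.26 FPKM, a log2 change of -0.16 that turned to 0.066 with the column sums made equal. The 3 genes stand in a row on chromosome 1, in the order *AGO4*, *AGO1* and *AGO3*, and a link between position and change was not tested. *AGO2*, the Argonaute with slicer activity (chr8:141541264-141645646, minus strand), had 8.56 FPKM in normoxia and 6.54 in hypoxia, 1.30-fold lower, with a log2 change of -0.38 at percentile 23.3.

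The make-up of Argonaute mRNA thus differed between the conditions. The 4 genes summed to 25.9 FPKM in normoxia and 24.9 in hypoxia, with a log2 change of -0.056 that turned to 0.17 with the column sums made equal and to 0.014 when centred on the median of all genes. *AGO2* made up 33.0% of the sum in normoxia and 26.2% in hypoxia, and *AGO4* made up 10.0% and 16.3%. *AGO3* held the largest share in both, 35.6% and 33.2%, and *AGO1* held 21.4% and 24.3%. There was 3.30 times as much *AGO2* as *AGO4* FPKM in normoxia and 1.61 times as much in hypoxia. A factor common to a column leaves such shares as they are, so they do not depend on the scaling by sums or medians.

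**Figure D4:**
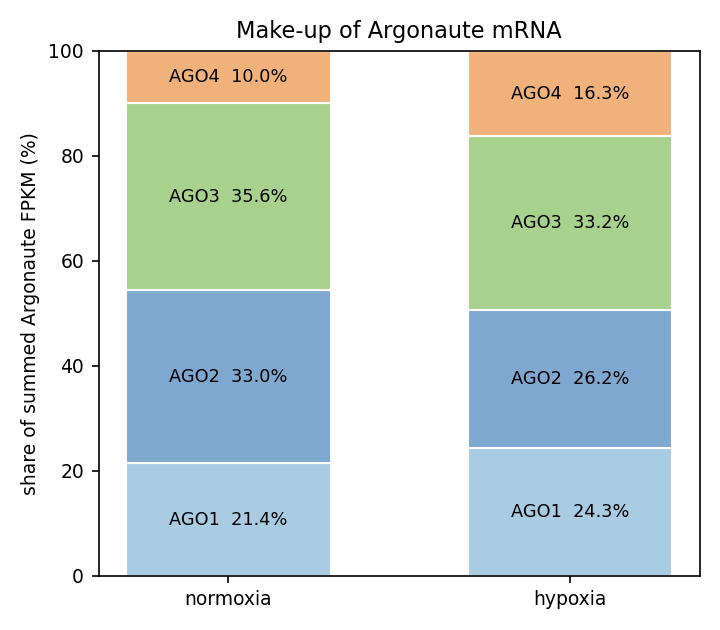
Stacked bars of the share (%) of each Argonaute gene in the summed FPKM of *AGO1*, *AGO2*, *AGO3* and *AGO4*, in normoxia and hypoxia, as pooled values without error bars. The *AGO4* block grows from 10.0% to 16.3% and the *AGO2* block shrinks from 33.0% to 26.2%.

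*AGO2* also differed within the gene. Its major transcript NM_012154 had 8.35 FPKM in normoxia and 5.79 in hypoxia (log2 change -0.52), while NM_001164623 had 0.208 and 0.748 (1.46), which is below the limit of 0.5 in mean FPKM. The minor transcript thus made up 2.43% of *AGO2* in normoxia and 11.4% in hypoxia. Its change was 0.53 with 1 FPKM added, so its size rests on the value near 0 in normoxia. In *AGO3* the minor transcript NM_177422 stayed at about a hundredth of the gene, 1.19% and 0.894%. Among the 6 genes with more than 1 listed transcript, 2 had a share that shifted by at least 5 percentage points, a limit chosen after the values were seen, where 35.4% of 5133 such genes did. Of the 16 transcripts past the FPKM limit, 2 were lower by 1.5-fold (NM_001271282 of *DICER1* and NM_134323 of *TARBP2*) and 1 was higher (NM_017629 of *AGO4*). Over all transcripts, 14.3% were lower and 10.5% higher by that much. With 1 FPKM added, NM_134323 (-0.40) and NM_017629 (0.49) fell short of 1.5-fold. NM_001271282 fell just short of it (-0.584) with the column sums made equal.

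Hypoxia-inducible factors bind short DNA elements whose core reads ACGTG or GCGTG. Both were searched on both strands, as examples chosen with the values known, in windows from 250 bases before to 50 after each start in RefSeq (GRCh38.p14). No window for *AGO2* was used here. ACGTG was in 21.4% of all 35116 windows and GCGTG in 36.5%. These shares are per window, so they are no background for a count of genes. Among the 9 genes, ACGTG was in the 1 window of *AGO4* and in 1 of the 5 windows of *DICER1*. *AGO4* had 2 copies, where 3.40% of all windows had at least 2. GCGTG was in the 1 window each of *AGO4*, *DGCR8* and *XPO5*. It was in 1 of the 5 windows of *DICER1* and in all 3 each of *TARBP2* and *PRKRA*. Neither core was in the windows of *DROSHA*, *AGO1* or *AGO3*. The 150 bases before the *AGO4* start (chr1:35807866-35808015 of GRCh38.p14, plus strand) are shown because this gene had the highest change of the set, with the matches in capitals. The matches for ACGTG, which appear as CACGT on the strand shown, start 119 and 38 bases before the *AGO4* start. The match for GCGTG starts 48 bases before it, and the matches do not overlap. Annotated starts of *AGO4* differ: in hg19 the GENCODE gene starts at 36273617 and the locus of the measured transcript at 36273828. Whether the start used for this window is that of the measured transcript was not tested.
AGO4 upstream: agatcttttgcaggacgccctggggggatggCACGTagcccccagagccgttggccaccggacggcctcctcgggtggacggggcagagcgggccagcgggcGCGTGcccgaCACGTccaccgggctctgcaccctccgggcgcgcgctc
A match of these letters describes the sequence and is no evidence of binding, and *TARBP2*, with the lowest change of the set, also held GCGTG in each of its 3 windows.

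The wider pathway was described from lists of genes with known roles. Over the 4 lists of cofactors, export and tailing, Argonaute loading and silencing, 69 genes passed the FPKM limit, with a median log2 change of -0.054. Of these, 9 were lower and 5 higher by 1.5-fold, near the 11.2% and 9.95% of all genes. Those shares of all genes are the background for each list below, and with so few genes a list's count of calls is given as a description.

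Of the 15 Microprocessor cofactors, RNA-binding proteins that help or hinder the first cut, all passed the FPKM limit, their median log2 change was -0.15, and 3 were lower and 0 higher by 1.5-fold, against 11.2% and 9.95% of all genes. *ILF2* had the most FPKM of the list in normoxia, 322.9, and 188.5 in hypoxia (log2 change -0.78). *SRSF3*, a splicing factor that also binds primary microRNA transcripts, had 248.7 and 152.4 FPKM (-0.71). *METTL3*, the methyltransferase that writes m6A, had 30.8 and 19.5 FPKM (-0.66). These are levels of mRNA, and protein was not measured in these data. The authors reported by immunoblot that SRSF3 protein was higher in hypoxic cells of this line, opposite in direction to its mRNA. The lower mRNA is therefore no measure of the amount of this cofactor. Of the 11 genes of hairpin export and tailing, 9 were listed, all 9 passed the limit, and *RAN* was the only one past 1.5-fold. *LIN28A* and *LIN28B*, which block let-7 maturation, were not analysed here.

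Of these 4 lists, that of Argonaute loading, modification and nuclear import held the largest single changes in either direction. Of its 21 genes, 18 were listed and all 18 passed the limit, and the other 3 were not analysed here. The median log2 change was -0.20, and 4 were lower and 4 higher by 1.5-fold, against 11.2% and 9.95% of all genes. *P4HA1*, a catalytic subunit of collagen prolyl 4-hydroxylase, which is also known to hydroxylate AGO2, had 58.6 FPKM in normoxia and 362.3 in hypoxia, 6.18-fold higher. *P4HA2*, the other such subunit measured, had 6.36 and 18.8 FPKM, 2.93-fold higher. *MOV10*, an RNA helicase found with Argonautes, had 8.39 and 13.8 FPKM (log2 change 0.71). *FKBP4*, a co-chaperone of HSP90 in Argonaute loading, had 89.7 and 44.4 FPKM, 2.02-fold lower. *TSNAX*, part of the C3PO nuclease that clears the passenger strand, had 42.5 and 25.9 FPKM (-0.71), and *AHSA1*, which activates HSP90, had 175.5 and 109.3 (-0.68). *HSP90AB1*, the most abundant of the list, had 753.9 and 586.6 FPKM (-0.36). Both prolyl hydroxylase subunits are known chiefly for modifying collagen.

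The silencing effectors downstream of the Argonautes were close to level as a list. Of 31 genes, 29 were listed and 27 passed the limit, with a median log2 change of -0.029, and 14 were lower and 13 higher. *PAN2*, the catalytic subunit of a deadenylase, was the only one past 1.5-fold upward, with 6.52 and 11.7 FPKM (0.84). *CNOT7*, a deadenylase of the CCR4-NOT complex, was the only one past it downward, with 111.4 and 72.4 FPKM (-0.62). *PABPC1*, the poly(A)-binding protein, was the most abundant, with 189.7 and 179.4 FPKM. A further list held the PIWI clade, the germline relatives of the Argonautes, and *HENMT1*, a gene of piRNA methylation. Of its 5 genes, 2 were listed and none passed the limit, with *PIWIL4* at 0.221 and 0.330 FPKM and *PIWIL2* at 0.0991 and 0.106.

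**Figure D5:**
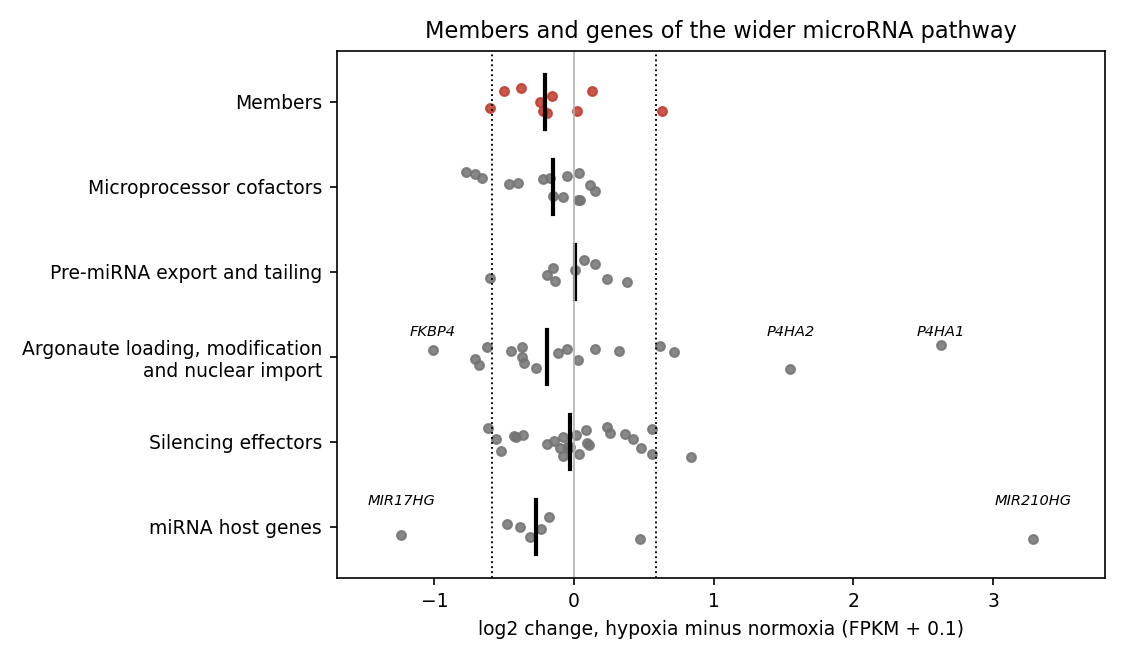
log2 change of the 10 genes (red) and of each gene past the FPKM limit in 5 lists of the wider pathway (grey), with a black bar at each median and dotted lines at 1.5-fold. The medians lie between -0.28 and 0.0030, while single genes such as *P4HA1* (2.63), *MIR210HG* (3.29) and *MIR17HG* (-1.24) lie far from them.

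Mature microRNAs are not polyadenylated and were not measured by these libraries, but transcripts that host them were. Of 11 host genes, 9 were listed and 8 passed the limit, with a median log2 change of -0.28. By 1.5-fold 1 was lower and 1 higher, near the 11.2% and 9.95% of all genes. *MIR210HG*, the host of miR-210, had 0.240 FPKM in normoxia and 3.21 in hypoxia, with a log2 change of 3.29. It passed the limit on the mean through its hypoxia value. The size of its change rests on the value near 0 in normoxia and on the 0.1 FPKM added. *MIR17HG*, the host of the cluster that holds miR-17 and miR-92a, had 9.29 and 3.88 FPKM, 2.36-fold lower. *MCM7*, a helicase gene that hosts the miR-106b cluster and the most abundant of the list, had 104.2 and 79.6 FPKM (-0.39). The mature sequences that these hosts with the largest differences carry are given from RefSeq (GRCh38.p14), 5′ to 3′, with the seed, bases 2 to 8, in capitals. That of miR-210-3p is encoded at chr11:568112-568133 on the minus strand, and those of *MIR17HG* lie on the plus strand from miR-17-5p at chr13:91350618-91350640 to miR-92a-3p at chr13:91351361-91351382.
miR-210-3p: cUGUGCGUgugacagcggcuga
miR-17-5p: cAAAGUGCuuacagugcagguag
miR-20a-5p: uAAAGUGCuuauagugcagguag
miR-18a-5p: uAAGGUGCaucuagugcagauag
miR-19a-3p: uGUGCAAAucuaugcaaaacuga
miR-19b-3p: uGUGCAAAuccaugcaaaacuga
miR-92a-3p: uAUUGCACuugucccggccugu
Those of miR-17-5p and miR-20a-5p share the seed AAAGUGC, and miR-19a-3p and miR-19b-3p share GUGCAAA, so the cluster of 6 shown here carries 4 seeds. The level of a host transcript is not that of its microRNAs, which pass through the steps above.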

How the data were processed

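Libraries were poly(A)-selected and stranded. Per the submitters' processing notes and the study's methods, the authors aligned reads to hg19 with STAR 2.3.0.1 and RefSeq annotation, and computed FPKM with the Cufflinks 2.1.1 suite at standard parameters. The deposited table holds 1 FPKM value per transcript and condition over 4 replicates. It also holds 4 columns of the authors' own comparison (log2 fold change, test statistic, p-value and q-value), which were not used. Single-replicate values and depths were not analysed here, so no test, interval or detection floor is given.

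RefSeq identifiers were paired with symbols through the annotation of GRCh38.p14 (24293 of 24812 entries). FPKM was summed per gene. Changes are log2((hypoxia + 0.1)/(normoxia + 0.1)). Genes whose mean FPKM was 0.5 or more were used and 1.5-fold was the limit for a call. As a check of the arithmetic only, 2-fold changes were put without noise into a copy of the normoxia values and were called. Such a check does not address replicate spread or low values. Start positions of table loci, which count from 0, were raised by 1. Exon overlaps came from GENCODE v44 lifted to GRCh37.

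The genes and lists were chosen with earlier results of these data known. From each pathway list, every gene past 1.5-fold (at most 3 each way where over 6) and the most abundant were named, with all hypoxia check genes. Python 3.11.15, numpy 2.4.6, pandas 2.3.3 and matplotlib 3.10.9 were used.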

Additional observations from a re-analysis of the deposited data

How the results depend on the processing

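The filter on low values (none, or a mean of 1 FPKM) and leaving out the pseudocount changed no sign and no count of genes. The median log2 change of the 10 genes was -0.11 with quantile normalization and 0.014 with columns scaled to equal sums. The single gene called lower, *TARBP2*, was not called with 1 FPKM added, with columns scaled to equal sums, with changes centred on the median of all genes, with quantile normalization or with the most abundant transcript (0 genes each), and the count was 3 at 1.2-fold and 0 at 2-fold. The single gene called higher, *AGO4*, was not called with 1 FPKM added or at 2-fold (0 genes each). Signs turned for *DICER1* (0.030), *AGO3* (0.066) and its NM_024852 (0.071) with equal sums, and for *DROSHA* with its most abundant transcript (-0.0065). For equal sums, centring and quantile normalization in that order, the log2 change was 0.17, 0.014 and 0.058 for NM_030621, and 0.21, 0.063 and 0.0053 for NM_001100412. The summed Argonaute FPKM, an alternative chosen after seeing the data, had a log2 change of 0.17 with equal sums, 0.014 with centring and -0.0024 with quantile normalization. Scaling to equal sums and centring each shift all log2 changes by a common amount, apart from values near 0 with equal sums. The amount differs between these scalings, with a median of the 10 genes of 0.014 with equal sums and -0.14 with centring. The fold limits only move the line for a call, and the cause of the other differences was not tested. No paired analysis was possible because the table gives 1 value per condition, and leaving out replicates could not be run for the same reason. Depth limits all values near 0, such as that of NM_001164623, by an amount not known here.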

Other observations

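The table also lists 10 entries for microRNA hairpins themselves, of which 7 were higher and 3 lower in hypoxia. Of all 18190 transcripts past the FPKM limit, 10437 were lower. MIR5188 had 2.56 FPKM in normoxia and 10.1 in hypoxia, MIR205 had 1.53 and 4.12, MIR454 had 5.39 and 1.73, MIR1248 had 17.6 and 2.40, and MIR7-1 had 10.0 and 11.0, and these 5 were picked after their values were seen. MIR181A2 was listed at 2.13 FPKM in normoxia and at 0 in hypoxia. Such entries do not measure mature microRNAs, and the reads behind these values are not known here.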
